A study of Caenorhabditis elegans with 3 samples.

Results

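The genes described here encode lysozymes and antimicrobial peptides of the nematode Caenorhabditis elegans. Membership was set by gene name, as genes of the lys, ilys, spp, cnc, thn, abf, fip, fipr and irg families together with nlp-27 to nlp-34 and F08G5.6. Of 10168 genes listed in either of 2 deposited tables, 54 matched, 53 of them in the table for dcr-1 RNAi, 52 in the table for drsh-1 RNAi and 51 in both. RefSeq annotates 123 genes of these families under current symbols. Of these, 54 are the genes described here, 9 are listed under a sequence name and 60 are in neither table. No irg symbol is used in the tables, where irg-4 stands as F08G5.6.

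C. elegans has no adaptive immunity and no circulating immune cells, and its epithelia make the effectors that act on microbes. The intestine secretes lysozymes, which cut bacterial cell walls, and saposin-like proteins (the spp genes, also called caenopores), some of which open pores in bacterial membranes. The epidermis makes small glycine-rich peptides, among them the products of nlp-29 and its neighbours and the caenacins (the cnc genes), which are induced by fungal infection and wounding. A p38 MAP kinase cascade that runs from the adaptor TIR-1 to the kinase PMK-1 controls many effectors in both tissues, and in the epidermis the TGF-beta ligand DBL-1 regulates cnc-2.

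All 3 libraries were made from polyA RNA of young adults of a fem-1 strain that had been given RNAi by feeding, and all carry the label 2.5 days. FEM-1 is needed for sperm to be made, and the submitters used the strain as sterile animals to set beside dcr-1 loss of function, which itself causes sterility. The fem-1 allele and the content of the mock feeding are not given in the sources used here. The groups are mock, dcr-1 RNAi and drsh-1 RNAi with 1 library each, so no difference has a replicate check and no test was possible. Dicer, the product of dcr-1, cuts double-stranded RNA and microRNA precursors, and Drosha, the product of drsh-1, releases microRNA precursors from their primary transcripts. The design text names drsh-1 knockdown and mock as the controls for dcr-1 knockdown.

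Values are FPKM, fragments for each kilobase of transcript, relative to the mapped fragments of a library. How the libraries were scaled to each other is not given. Over the 9043 genes with equal mock values in both tables, FPKM summed to 645247 in mock, 791603 with dcr-1 RNAi and 679995 with drsh-1 RNAi. Sums of FPKM are therefore not on a common total between libraries. The log2 ratio is that of (FPKM + 1), and a gene is counted as higher or lower when this ratio is at least 2-fold, which describes size only. How deeply the libraries were sequenced is unknown. The tables list a gene only where both of their libraries exceed 2 FPKM, so a gene under 5 FPKM in mock cannot be counted as lower. That applies to 8 members in the dcr-1 table and 7 in the drsh-1 table. The dcr-1 transcript went from 36.8 FPKM with mock to 23.8 FPKM with its own RNAi, and the drsh-1 transcript from 31.999 FPKM to 20.9 FPKM with its own. The mock value of drsh-1 differs between the tables and is 26.2 FPKM in the dcr-1 table. All 16 oocyte markers examined were listed, and 8 of 42 sperm markers, none above 8.65 FPKM in any library.

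In dcr-1 RNAi 10 of 12 listed nlp and cnc genes were at least 2-fold higher than in mock, and 5 of 13 saposin-like genes were at least 2-fold lower. Of the 53 genes with a value in the dcr-1 table, 16 were at least 2-fold higher, or 30.2%, against 6.71% of all 9631 listed genes. Another 8 were at least 2-fold lower, or 15.1%, against 6.53% of all listed genes. The 16 higher genes comprise 5 nlp, 5 cnc, 3 fipr, 1 fip and 1 spp gene and F08G5.6. The 8 lower genes are spp-1, spp-2, spp-4, spp-8, spp-18, lys-4, abf-2 and thn-2. The median log2 ratio over the 53 genes was 0.32, beside 0.06 over all listed genes. Above mock were 35 and below it 18, against 55.5% and 44.5% of all listed genes. With a limit of 1.5-fold, 21 were higher and 12 lower, against 16% and 13.9% of all listed genes.

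The higher and the lower genes stood at different levels in mock. Part of this is set by the selection, since mock is the denominator of the ratio that formed the groups. The limit of the tables also keeps genes under 5 FPKM in mock out of the lower group. In mock the 16 higher genes ranged from 2.85 to 322 FPKM with a median of 16.4 FPKM, and 9 of them were under 20 FPKM. The 8 lower genes ranged from 71.9 to 404 FPKM with a median of 209 FPKM. The medians of the same genes with dcr-1 RNAi were 63.6 and 59.3 FPKM. Transcripts of these families are short. The longest annotated transcript was under 500 bases for 36 of 54 members, 14 of the 16 higher and 4 of the 8 lower genes included. Among all listed genes that short, 9.92% were higher and 6.2% lower by that size in dcr-1 RNAi. The part of transcript length in these ratios was not tested.

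**Figure D1:**
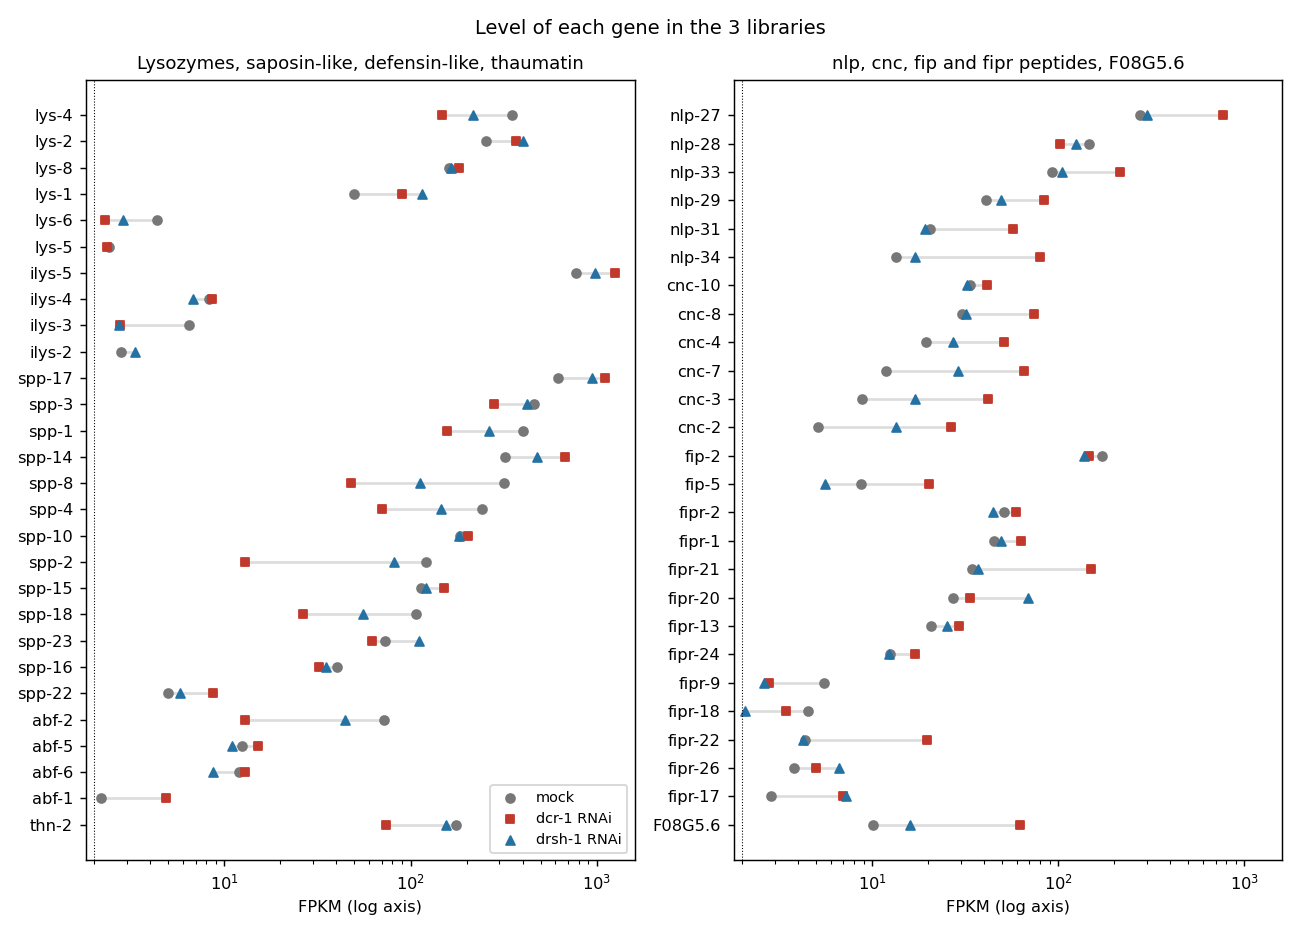
FPKM on a log axis for each of the 54 genes in mock (grey circles), dcr-1 RNAi (red squares) and drsh-1 RNAi (blue triangles), 1 library each, with the 2 FPKM limit of the tables as a dotted line. The nlp and cnc genes stand mostly to the right of mock in dcr-1 RNAi, and spp-1, spp-2, spp-4, spp-8 and spp-18 to the left.

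**Figure D2:**
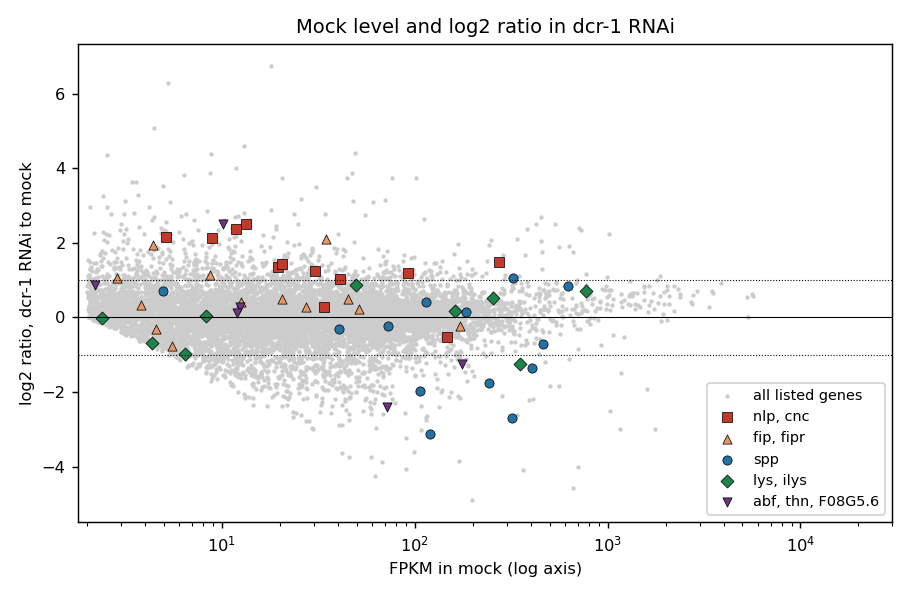
FPKM in mock on a log axis against the log2 ratio of dcr-1 RNAi to mock, with all 9631 listed genes in grey and the 53 members in colour by family. The mock value enters both axes, and dotted lines mark 2-fold; the empty corner at the lower left comes from the 2 FPKM limit, and the 8 lower members lie at 71.9 FPKM or more in mock.

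The nlp genes of this group encode short secreted peptides named for their likeness to neuropeptide precursors. Of 6 listed genes, 5 were at least 2-fold higher in dcr-1 RNAi and 0 lower, against 6.71% and 6.53% of all listed genes. nlp-29, the usual reporter of the epidermal response to fungus and wounding, was at 40.7 FPKM in the mock library, 83.8 FPKM with dcr-1 RNAi and 49.5 FPKM with drsh-1 RNAi, a log2 ratio of 1.02 in dcr-1 RNAi. This is close to the 2-fold limit, and nlp-29 was under it with a pseudocount of 5 FPKM or after rescaling of the libraries. The largest ratio of the family was that of nlp-34, at 13.4 FPKM in the mock library, 79.8 FPKM with dcr-1 RNAi and 16.996 FPKM with drsh-1 RNAi (log2 ratio 2.49 in dcr-1 RNAi).

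nlp-27 was the most abundant of the family, at 274 FPKM in the mock library, 770.2 FPKM with dcr-1 RNAi and 299.6 FPKM with drsh-1 RNAi. nlp-33 was at 92.7 FPKM in the mock library, 214 FPKM with dcr-1 RNAi and 104.8 FPKM with drsh-1 RNAi. nlp-31 was at 20.5, 56.8 and 19.1 FPKM in the same order. For these 3 genes the drsh-1 RNAi value stayed near that of mock, and the dcr-1 RNAi value was the highest of the 3 libraries. nlp-28 was the exception, at 146.6 FPKM in the mock library, 102.4 FPKM with dcr-1 RNAi and 124.9 FPKM with drsh-1 RNAi (log2 ratio -0.51 in dcr-1 RNAi). nlp-30 and nlp-32 were in neither table.

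The caenacins, a related family of glycine-rich peptides, were above mock in dcr-1 RNAi for all 6 listed genes, 5 of them by at least 2-fold, against 6.71% of all listed genes, and their median log2 ratio was 1.74. cnc-2, the reporter of the DBL-1 branch, was at 5.14 FPKM in the mock library, 26.4 FPKM with dcr-1 RNAi and 13.4 FPKM with drsh-1 RNAi. cnc-7 was at 11.82 FPKM in the mock library, 65.2 FPKM with dcr-1 RNAi and 28.998 FPKM with drsh-1 RNAi. Both were more than 2-fold above mock in each RNAi library, with log2 ratios of 2.16 and 1.23 for cnc-2 and of 2.37 and 1.23 for cnc-7.

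Of the other caenacins, cnc-3, cnc-4 and cnc-8 were past 2-fold in dcr-1 RNAi only. cnc-3 was at 8.84 FPKM in the mock library, 42.1 FPKM with dcr-1 RNAi and 17.02 FPKM with drsh-1 RNAi. Its log2 ratio in drsh-1 RNAi was 0.87, not far under the limit. cnc-4 was at 19.5, 51.2 and 27.03 FPKM. cnc-8 was at 30.4, 74.1 and 31.8 FPKM, so that its drsh-1 RNAi value was close to mock. cnc-10 was within 2-fold in both, at 33.7 FPKM in the mock library, 41.4 FPKM with dcr-1 RNAi and 32.5 FPKM with drsh-1 RNAi. The other 5 annotated caenacin genes, cnc-1, cnc-5, cnc-6, cnc-9 and cnc-11, were in neither table.

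**Figure D3:**
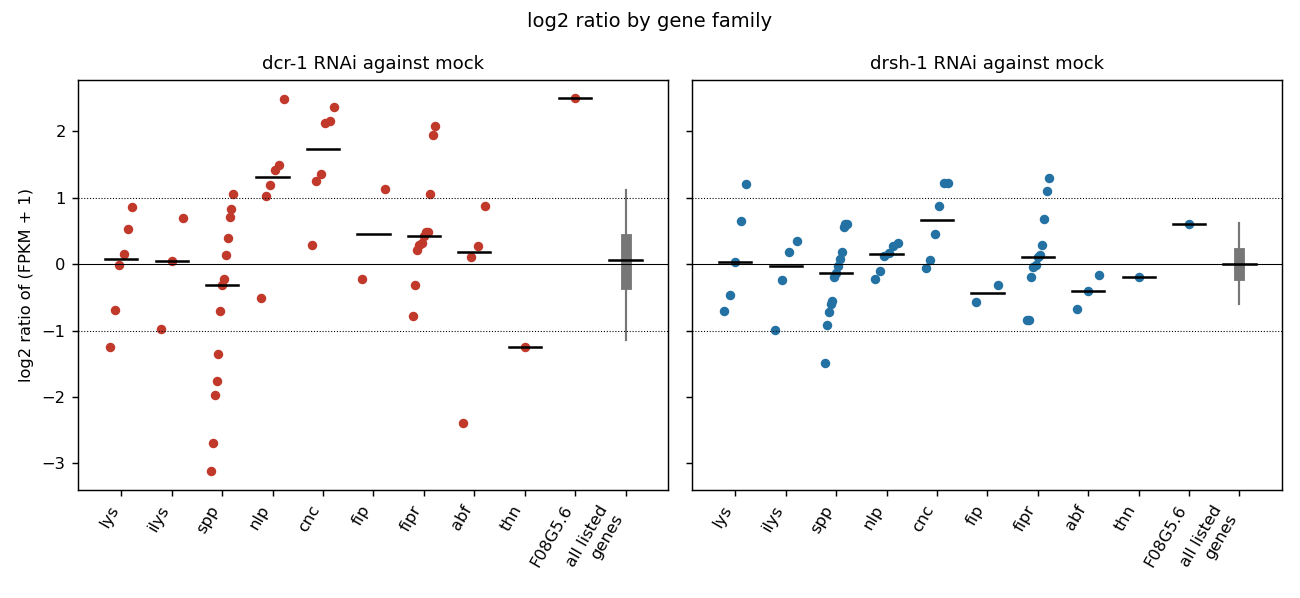
log2 ratio of (FPKM + 1) to mock for each gene by family, in dcr-1 RNAi (left) and drsh-1 RNAi (right), with family medians as black lines, 2-fold as dotted lines and, for all listed genes, the range from percentile 25 to 75 as a thick bar and from 5 to 95 as a thin bar. In dcr-1 RNAi the nlp and cnc medians lie above the upper dotted line, at 1.31 and 1.74, and the spp genes spread from -3.12 to 1.06.

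Genes named as fungus-induced (fip) or fungus-induced related (fipr) were more mixed. Of 13 listed genes, 4 were at least 2-fold higher in dcr-1 RNAi and 0 lower, against 6.71% and 6.53% of all listed genes. Their median log2 ratio was 0.42, beside 0.06 for all listed genes. fipr-21 was at 34.5 FPKM in the mock library, 150.02 FPKM with dcr-1 RNAi and 37.2 FPKM with drsh-1 RNAi. fipr-22 was at 4.37, 19.8 and 4.23 FPKM in the same order. Both were at mock level in drsh-1 RNAi. fip-5 was highest in dcr-1 RNAi and lowest in drsh-1 RNAi, at 8.70 FPKM in the mock library, 20.2 FPKM with dcr-1 RNAi and 5.56 FPKM with drsh-1 RNAi. fipr-17, at 2.85, 7.002 and 7.26 FPKM, was higher than mock in both RNAi libraries. In dcr-1 RNAi fip-5 and fipr-17 were under 2-fold with a pseudocount of 5 FPKM, and fipr-17 also after rescaling of the libraries.

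The most abundant gene of this group in mock and drsh-1 RNAi, fip-2, was within 2-fold of mock in both, at 170.7 FPKM in the mock library, 145 FPKM with dcr-1 RNAi and 138 FPKM with drsh-1 RNAi. The remaining fipr genes were between 2.07 and 68.8 FPKM in the libraries that list them. The annotated transcripts of fipr-17, fipr-18 and fipr-20 are only 144, 132 and 129 bases long, and closely similar copies within the family can share reads, so their single values are uncertain. Of 36 annotated fip and fipr genes, 23 were in neither table.

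The spp genes encode proteins with a saposin fold, and 13 were listed. In dcr-1 RNAi 5 were at least 2-fold lower, against 6.53% of all listed genes. The 1 higher gene is 7.69% of the family, near the 6.71% of all listed genes. The median log2 ratio of the family was -0.31. spp-2 had the lowest ratio of all members, at 120.4 FPKM in the mock library, 12.9 FPKM with dcr-1 RNAi and 81.2 FPKM with drsh-1 RNAi (log2 ratio -3.12), the 14th lowest of 9631 genes. spp-8 was at 317 FPKM in the mock library, 48.1 FPKM with dcr-1 RNAi and 112.9 FPKM with drsh-1 RNAi (log2 ratio -2.70), and was the only member at least 2-fold lower in both RNAi libraries. For both genes all values were well above the limit of the tables, and mock was the highest of the 3 libraries.

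spp-1, whose product has been shown to form pores in membranes, was at 404 FPKM in the mock library, 157 FPKM with dcr-1 RNAi and 265 FPKM with drsh-1 RNAi. spp-4 was at 241 FPKM in the mock library, 70.5 FPKM with dcr-1 RNAi and 146 FPKM with drsh-1 RNAi. spp-18 was at 107 FPKM in the mock library, 26.6 FPKM with dcr-1 RNAi and 55.9 FPKM with drsh-1 RNAi. In each of these 3 genes the drsh-1 RNAi value lay between mock and dcr-1 RNAi. spp-3, the most abundant of the lower side, had the same order of libraries within 2-fold, at 459.6 FPKM in the mock library, 282 FPKM with dcr-1 RNAi and 420.4 FPKM with drsh-1 RNAi.

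Other abundant spp genes were above mock. spp-17 was at 621 FPKM in the mock library, 1109.6 FPKM with dcr-1 RNAi and 949.8 FPKM with drsh-1 RNAi (log2 ratios 0.84 and 0.61). spp-14 was at 322 FPKM in the mock library, 673 FPKM with dcr-1 RNAi and 477 FPKM with drsh-1 RNAi, and at a log2 ratio of 1.06 was the only spp gene past 2-fold on this side. It was under 2-fold, at 0.99, with a common upper quartile. spp-10, at 184 FPKM in the mock library, 203 FPKM with dcr-1 RNAi and 181 FPKM with drsh-1 RNAi, and spp-15, at 114 FPKM, 151.6 FPKM and 121 FPKM, were near mock in both. The less abundant spp-16, spp-22 and spp-23 were within 2-fold in both, and spp-23 was the only one of them highest with drsh-1 RNAi, at 111 FPKM against 72.6 FPKM in mock and 61.9 FPKM with dcr-1 RNAi. These genes differ in direction, and the 13 summed to 3008 FPKM in the mock library, 2837 FPKM with dcr-1 RNAi and 2962 FPKM with drsh-1 RNAi. As a share of all FPKM over the 9043 genes with equal mock values, this was 0.4663%, 0.3584% and 0.4355%, lowest with dcr-1 RNAi.

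Lysozyme genes fall into the lys family, whose proteins resemble lysozymes of protists, and the ilys family of invertebrate-type lysozymes. In dcr-1 RNAi 1 of 9 was at least 2-fold lower and 0 were higher, against 6.53% and 6.71% of all listed genes, so that lysozyme genes do not stand out by these counts. That gene was lys-4, at 352 FPKM in the mock library, 147 FPKM with dcr-1 RNAi and 216 FPKM with drsh-1 RNAi (log2 ratios -1.25 and -0.70). ilys-5 was the most abundant of all members, at 769.9 FPKM in the mock library, 1252 FPKM with dcr-1 RNAi and 978 FPKM with drsh-1 RNAi (log2 ratios 0.70 and 0.34). Its order of libraries, with dcr-1 RNAi highest and mock lowest, was the reverse of that of lys-4.

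lys-1 and lys-2 were highest in drsh-1 RNAi. lys-1 was at 49.5 FPKM in the mock library, 90.5 FPKM with dcr-1 RNAi and 115.2 FPKM with drsh-1 RNAi, with log2 ratios of 0.86 and 1.202. lys-2 was at 255 FPKM in the mock library, 367 FPKM with dcr-1 RNAi and 402 FPKM with drsh-1 RNAi. lys-8 was nearly level, at 162, 181 and 165 FPKM. ilys-3, whose product acts in the breakdown of ingested bacteria, was low, at 6.44 FPKM in the mock library, 2.76 FPKM with dcr-1 RNAi and 2.73 FPKM with drsh-1 RNAi. Its log2 ratios of -0.98 and -0.996 were just short of 2-fold and passed it with a pseudocount of 0.1 FPKM, and in dcr-1 RNAi also after rescaling of the libraries. lys-5, lys-6, ilys-2 and ilys-4 stayed under 9 FPKM in every library that lists them, and lys-3, lys-7, lys-9, lys-10, ilys-1 and ilys-6 were in neither table.

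The remaining members belong to small families. abf-2, which encodes a defensin-like peptide active against bacteria and yeast, was at 71.9 FPKM in the mock library, 12.95 FPKM with dcr-1 RNAi and 44.7 FPKM with drsh-1 RNAi (log2 ratio -2.39 in dcr-1 RNAi). abf-1, abf-5 and abf-6 were between 2.18 and 15.2 FPKM in the libraries that list them and within 2-fold of mock. Of these, abf-1 went from 2.18 FPKM in mock to 4.84 FPKM with dcr-1 RNAi, and passed 2-fold with a pseudocount of 0.1 FPKM (log2 ratio 1.11). thn-2, which encodes a thaumatin-like protein, was at 177 FPKM in the mock library, 73.9 FPKM with dcr-1 RNAi and 155 FPKM with drsh-1 RNAi. F08G5.6, a CUB domain gene used as a reporter of intestinal infection responses, was at 10.1 FPKM in the mock library, 61.9 FPKM with dcr-1 RNAi and 15.9 FPKM with drsh-1 RNAi (log2 ratio 2.499 in dcr-1 RNAi), the highest ratio of the members.

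Many of these genes lie side by side in the genome. In the RefSeq gene order, 38 of the 54 members stand in a run with another gene of these families, with at most 2 other protein-coding genes between neighbours. The run nlp-34, nlp-31, nlp-30, nlp-29, nlp-28 and nlp-27 has no other protein-coding gene within it. Going along it, log2 ratios in dcr-1 RNAi were 2.49 for nlp-34, 1.42 for nlp-31, 1.02 for nlp-29, -0.51 for nlp-28 and 1.49 for nlp-27. nlp-28 was thus lower than mock between a pair of neighbours that were at least 2-fold higher. In the run that holds cnc-4, cnc-3 and cnc-2 at one end, these 3 had log2 ratios of 1.35, 2.13 and 2.16, and the other 3 genes of the run were not listed.

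A mixed run joins fip-5, fipr-21 and cnc-8, genes of different families by name. All 3 were at least 2-fold higher in dcr-1 RNAi, with log2 ratios of 1.13, 2.09 and 1.26, and within 2-fold in drsh-1 RNAi. In the run spp-3, spp-2, spp-6, spp-4 and spp-5, the 3 listed genes were all below mock in dcr-1 RNAi, at -0.70 for spp-3, -3.12 for spp-2 and -1.76 for spp-4. Some neighbours differed in direction or size. spp-8 stands next but one to spp-10, whose log2 ratio was 0.14 against -2.70, and abf-2 stands next to abf-1, with -2.39 against 0.87. abf-1 was at 2.18 FPKM in mock, near the limit of the tables. Opposite sides of mock were also seen for spp-17 and spp-23 (0.84 and -0.23) and for fipr-18 and fipr-20 (-0.31 and 0.29). fipr-18 was at only 4.53 FPKM in mock and 3.45 FPKM with dcr-1 RNAi, and the transcripts of this pair are 132 and 129 bases long. In some other runs the listed genes lay on the same side of mock in dcr-1 RNAi, as for lys-1 and lys-2 (0.86 and 0.52) and fipr-22 and fipr-24 (1.95 and 0.42). In the run lys-4, lys-5 and lys-6 (-1.25, -0.02 and -0.69), lys-5 was level with mock at 2.39 and 2.35 FPKM, near the limit of the tables. Of all 53 members, 35 were above mock. Whether neighbours share a side more often than other members was not tested.

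**Figure D4:**
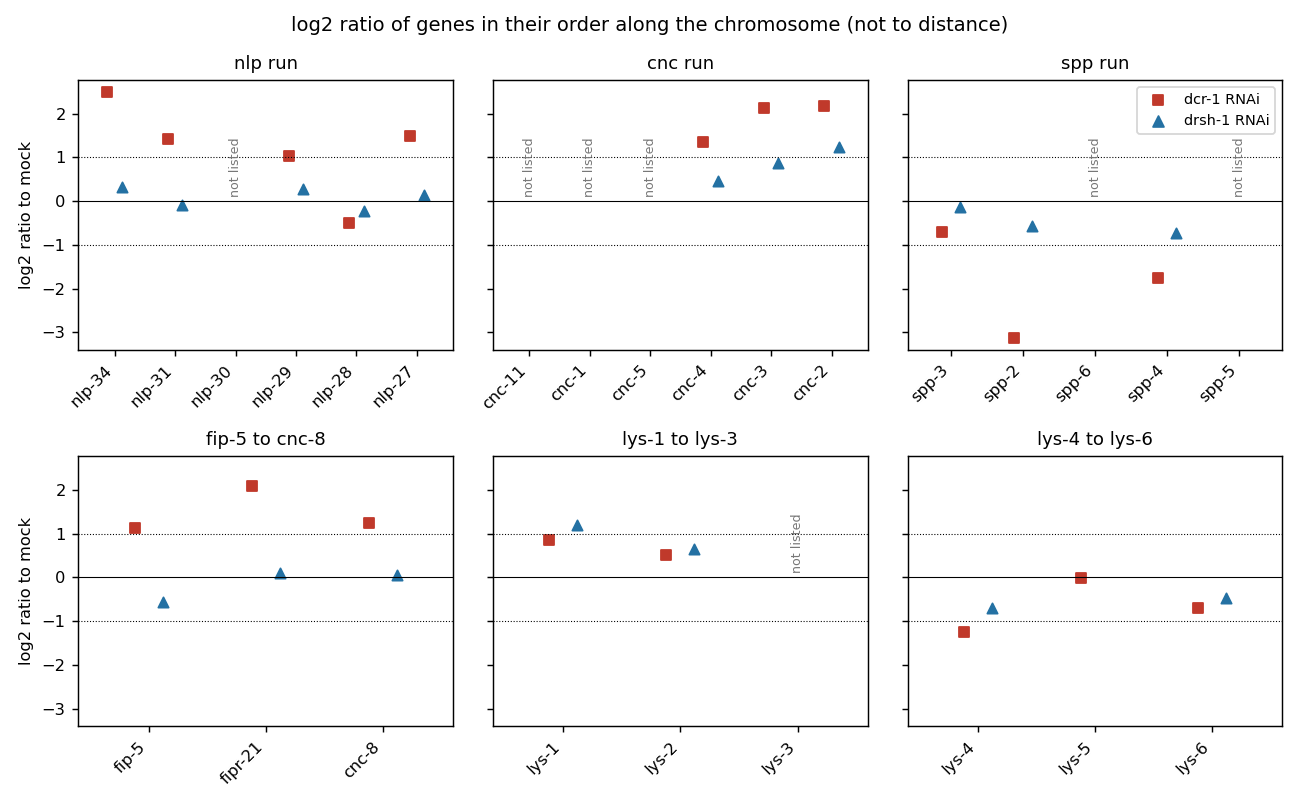
log2 ratio to mock of the genes in 6 runs, drawn in their order along the chromosome and not to distance, for dcr-1 RNAi (red squares) and drsh-1 RNAi (blue triangles); genes in neither table are marked as not listed. Listed genes of the fip-5 to cnc-8 run lie above the 2-fold line in dcr-1 RNAi, whereas nlp-28 lies below 0 between nlp-29 and nlp-27.

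In drsh-1 RNAi the members were closer to mock. Of 52 genes, 5 were at least 2-fold higher, or 9.62%, against 1.91% of all 9996 listed genes, and 1 was lower, against 1.59%. The higher genes were cnc-2, cnc-7, fipr-17, fipr-20 and lys-1, and the lower one was spp-8. fipr-20 was at 27.2 FPKM in the mock library, 33.5 FPKM with dcr-1 RNAi and 68.8 FPKM with drsh-1 RNAi. The median log2 ratio of the 52 genes was 0.01, beside 0.00 for all listed genes, and 26 stood on each side of mock, against 50.4% above and 49.6% below for all listed genes. With a limit of 1.5-fold, 11 were higher and 9 lower, against 5.45% and 5.19% of all listed genes. All 6 nlp genes were within 2-fold, with log2 ratios between -0.23 and 0.33. Among listed genes with transcripts under 500 bases, 3.11% were at least 2-fold higher and 2.64% lower in this comparison.

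Both comparisons use the same mock library, so values that are off in mock would move both. The 8 genes at least 2-fold lower in dcr-1 RNAi had log2 ratios between -1.48 and -0.19 in drsh-1 RNAi, all below 0. Of the 16 higher genes, 13 were above mock and 3 below it in drsh-1 RNAi, between -0.57 and 1.23. No member passed 2-fold in opposite directions in the RNAi libraries, and 25 of the 51 genes in both tables were within 2-fold in both. Few genes passed 2-fold in drsh-1 RNAi at all, 1.91% of all listed genes higher and 1.59% lower. The shares of all listed genes in such joint classes were not worked out, so these counts do not set the members apart.

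Set directly against drsh-1 RNAi, which leaves mock out, the dcr-1 RNAi library was at least 2-fold higher for 11 of 51 members, or 21.6%, against 4.29% of 9043 genes. It was at least 2-fold lower for 7, or 13.7%, against 5.78%. The higher genes were nlp-27, nlp-31, nlp-33, nlp-34, cnc-3, cnc-7, cnc-8, fip-5, fipr-21, fipr-22 and F08G5.6. The largest log2 difference was 2.17 for nlp-34. The lower genes were spp-2, spp-4, spp-8, spp-18, abf-2, thn-2 and fipr-20, with spp-2 lowest at -2.56. cnc-2, at 0.93, was under the limit. nlp-33, spp-4 (-1.04), spp-18, thn-2 (-1.05) and fipr-20 were past the limit but close to it. Of these, nlp-33, spp-18 and fipr-20 were within 2-fold with a pseudocount of 5 FPKM, and nlp-33 also after rescaling of the libraries.

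As a share of all FPKM over the 9043 genes with equal mock values in both tables, the 51 members made up 0.928% with mock, 0.913% with dcr-1 RNAi and 0.920% with drsh-1 RNAi. Within that, the families shifted. The summed nlp level was 588 FPKM in the mock library, 1307 FPKM with dcr-1 RNAi and 615 FPKM with drsh-1 RNAi. The summed cnc level was 109 FPKM in the mock library, 300.5 FPKM with dcr-1 RNAi and 151 FPKM with drsh-1 RNAi. The 5 lys genes summed to 823, 788 and 900.4 FPKM, and the 3 ilys genes, mostly ilys-5, to 785, 1263 and 987 FPKM. The sum over all 9043 genes was itself 1.23-fold that of mock with dcr-1 RNAi. As shares of all FPKM, the nlp genes made up 0.0911% with mock and 0.1651% with dcr-1 RNAi, and the cnc genes 0.0170% and 0.0380%. The ilys genes made up 0.1216% and 0.1595%, the lys genes 0.1276% and 0.0996%, and the spp genes 0.4663% and 0.3584%.

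**Figure D5:**
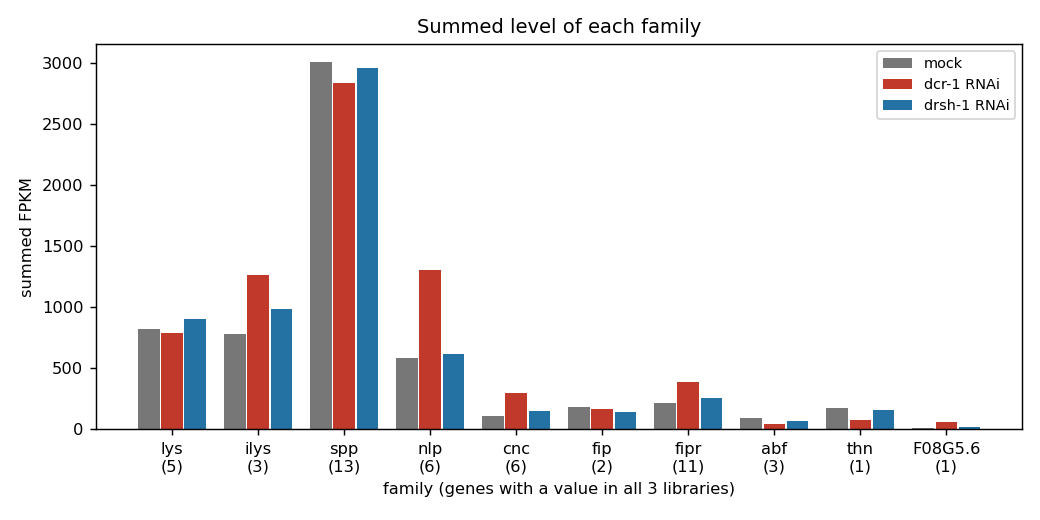
Summed FPKM of each family in mock (grey), dcr-1 RNAi (red) and drsh-1 RNAi (blue), over the genes with a value in all 3 libraries, whose number stands in brackets. The spp bars span 2837 to 3008 FPKM, whereas the nlp bar of dcr-1 RNAi reaches 1307 FPKM beside 588 FPKM in mock. Bars are not divided by the total over all listed genes with equal mock values, which was 1.23-fold that of mock with dcr-1 RNAi.

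Regulators upstream of these effectors were described from a list of 45 genes, 37 of them with a value for dcr-1 RNAi. Of these, 1 was higher by 2-fold or more (2.70%, against 6.71% of all listed genes) and 5 were lower (13.5%, against 6.53%), and the median log2 ratio was -0.22. The 5 lower genes include 3 of the p38 cascade, tir-1 (log2 ratio -1.04), nsy-1 (-1.22) and pmk-1 (-1.02). Of these, tir-1 and pmk-1 are close to the 2-fold limit, and the regulators were not run with other pseudocounts or scalings. The other p38 kinase genes, pmk-2 and pmk-3, were at -0.25 and -0.30, and sek-1 of the same cascade was in neither table. tir-1, the adaptor at its head, was at 35.2 FPKM in the mock library, 16.5 FPKM with dcr-1 RNAi and 17.01 FPKM with drsh-1 RNAi. nsy-1, the first kinase, was at 16.1 FPKM in the mock library, 6.36 FPKM with dcr-1 RNAi and 10.8 FPKM with drsh-1 RNAi. pmk-1, the p38 kinase itself, was at 23.2 FPKM in the mock library, 10.9 FPKM with dcr-1 RNAi and 19.98 FPKM with drsh-1 RNAi. All 3 were lowest with dcr-1 RNAi, with tir-1 nearly as low with drsh-1 RNAi.

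The other lower regulators were pkc-3, an atypical protein kinase C gene (log2 ratio -1.70), and pik-1, an IRAK-like kinase gene (-1.04). The single higher one was the nuclear hormone receptor gene nhr-49 (1.03). Its mock value was 8.44 FPKM in the dcr-1 table but 34.1 FPKM in the drsh-1 table. Its dcr-1 RNAi value of 18.3 FPKM lies between them, so its direction is uncertain. Like tir-1 and pmk-1, pik-1 and nhr-49 are close to the 2-fold limit. Transcription factor genes of the list other than nhr-49 were within 2-fold in dcr-1 RNAi. Among them atf-7 was at -0.49, skn-1 at -0.47, zip-2 at -0.45, elt-2 at -0.07 and sta-2, listed as F58E6.1, at 0.45. In drsh-1 RNAi 1 of 40 regulators, tir-1 (-1.01, just past the limit), was at least 2-fold lower and 0 were higher, against 1.59% and 1.91% of all listed genes.

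Of the DBL-1 pathway, 8 of 10 genes had a value for dcr-1 RNAi, and 1 was at least 2-fold higher, against 6.71% of all listed genes. That gene was lon-1, which DBL-1 signalling represses, at 14.05 FPKM in the mock library, 51.2 FPKM with dcr-1 RNAi and 28.2 FPKM with drsh-1 RNAi. The Smad genes sma-3 and sma-4 had log2 ratios of 0.63 and -0.51 in dcr-1 RNAi. Among 8 genes of peptide processing, aex-5, a proprotein convertase gene, was at 12.7 FPKM in the mock library, 75.5 FPKM with dcr-1 RNAi and 14.9 FPKM with drsh-1 RNAi, and the others were within 2-fold of mock in both.

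Markers of the tissues that make these effectors did not move as one. These are bulk RNA values from whole animals, in which fewer cells of a type and less RNA per cell cannot be told apart. Of 13 intestinal markers, 12 were listed, and in dcr-1 RNAi 3 were at least 2-fold higher and 3 lower, against 6.71% and 6.53% of all listed genes. The actin gene act-5 of the intestinal brush border had a log2 ratio of 2.51, the desaturase gene fat-6 of -1.89, and the intestinal GATA factor gene elt-2 of -0.07. Over the 11 intestinal markers with equal mock values, the summed level was 568 FPKM in the mock library, 1138 FPKM with dcr-1 RNAi and 716 FPKM with drsh-1 RNAi. The sum over all 9043 genes with equal mock values was 1.23-fold that of mock with dcr-1 RNAi and 1.05-fold with drsh-1 RNAi. The part of the intestinal markers in the lysozyme and spp values was not tested.

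Of 11 epidermal markers, 6 were listed in either table, and 1 was at least 2-fold higher in dcr-1 RNAi, against 6.71% of all listed genes. This was col-19, an adult cuticle collagen gene, at 340 FPKM in the mock library, 1455 FPKM with dcr-1 RNAi and 376 FPKM with drsh-1 RNAi, an order of libraries like that of nlp-27. The epidermal transcription factor genes elt-3, elt-1 and lin-26 had log2 ratios of 0.02, -0.29 and -0.16 in dcr-1 RNAi. In drsh-1 RNAi they were at -0.09, -0.91 and -1.38, lin-26 being at 24.8 FPKM in the mock library and 8.90 FPKM with drsh-1 RNAi. Of 18 molting cycle genes, 8 were listed, and mlt-8 was at least 2-fold higher in dcr-1 RNAi (1.10), against 6.71% of all listed genes. In drsh-1 RNAi 3 of the 8 were at least 2-fold lower, or 37.5%, against 1.59% of all listed genes, namely sqt-3 (-2.25), noah-2 (-1.93) and noah-1 (-1.86). All 5 listed embryonic markers of 12 were at least 2-fold higher in drsh-1 RNAi, against 1.91% of all listed genes, their summed level being 25.2 FPKM in the mock library, 38.7 FPKM with dcr-1 RNAi and 109 FPKM with drsh-1 RNAi. The part of the epidermal, molting and embryonic markers in the values of the effector genes was not tested.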

How the data were processed

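PolyA RNA of 3 samples, 1 each of mock, dcr-1 RNAi and drsh-1 RNAi, was extracted with TRIzol and made into TruSeq libraries for the HiSeq2000, per the labels' protocols. Tools used were TopHat2 2.06, SAMtools, Cufflinks, Cuffdiff 2.1.1 and CASAVA 1.8.2, with no roles stated, per the submitters' processing notes. Genome build, annotation, strand setting and scaling between libraries are not given in the sources used here. No coordinates are printed for that reason. The authors deposited FPKM values for mock and 1 RNAi library in each of 2 tables without headers, and a log2 ratio, which a recalculation from FPKM + 1 matched with a largest difference of 5.0e-12. The RNAi library was taken from the table's name. Mock was taken as the column common to both tables, by which the deposited log2 ratio divides. Of 9459 genes in both tables, 9043 have mock values equal to within 1e-09 FPKM, the 51 members in both tables among them.

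Log2 ratios of (FPKM + 1) were recomputed with Python 3.11.15 and NumPy 2.4.6, after a check on simulated data. Counts of genes past a size are read against the share of all listed genes past the same size. Names, neighbours and lengths come from RefSeq and Ensembl release 115 annotation, in which all 54 members matched. Of the members, 5 have exons that overlap a gene on the other strand (fip-2, lys-8, spp-1, spp-15 and spp-16), and without a stated strand setting the reads of such pairs cannot be told apart. Members at least 2-fold apart from mock, the extremes of each family and members with a mean of at least 100 FPKM are named with values, as are the extremes of other lists. The members and the lists were chosen with earlier results of these data known. Pseudocounts of 0.1 and 5 FPKM, median centring, a common upper quartile, a minimum mean of 5 FPKM, equal mock values only and a 1.5-fold limit were tried.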

Additional observations from a re-analysis of the deposited data

How the results depend on the processing

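With 1 library per group, no spread between replicates, no interval from counting error and no leave-one-out value could be had. No paired analysis was possible because each group has 1 library. In dcr-1 RNAi against mock the number of members at least 2-fold higher was 13 to 17 under the alternatives that keep the 2-fold limit, and the number lower was 8 or 9. No member past 2-fold changed sign under any of the alternatives run. With a 1.5-fold limit the numbers were 21 and 12. Counts in drsh-1 RNAi against mock were less stable. The number higher, 5 as reported, was 3 with a pseudocount of 5 FPKM, where cnc-2 and fipr-17 dropped out, and 11 with a 1.5-fold limit. The number lower, 1 as reported, was 4 with a pseudocount of 0.1 FPKM, where fipr-9, fipr-18 and ilys-3 were added, and 9 with a 1.5-fold limit. The median of 0.01 became -0.0121 over genes with equal mock values, where the number of genes is smaller by 1. Against drsh-1 RNAi, the dcr-1 RNAi counts were 10 or 11 higher and 5 to 7 lower at 2-fold. Ratios of members with few FPKM are the least certain, since the depth is unknown.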

Other observations

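Another 9 genes of these families are listed under a sequence name and carry a family symbol in the RefSeq annotation. They were not among the 54 genes. Of the infection response genes, ZK6.11, now irg-8, was at 20.4 FPKM in the mock library, 283 FPKM with dcr-1 RNAi and 104 FPKM with drsh-1 RNAi. Its log2 ratios of 3.73 and 2.295 were above those of every one of the 54 genes in the same comparison. F40F4.6, now irg-7, was at 25.8 FPKM in the mock library, 80.2 FPKM with dcr-1 RNAi and 34.5 FPKM with drsh-1 RNAi, and F35E12.5, now irg-5, at 29.1, 80.4 and 38.8 FPKM. C49G7.5, now irg-2 (log2 ratio 1.78 in dcr-1 RNAi), and C07G3.2, now irg-1 (1.13), were also at least 2-fold higher in dcr-1 RNAi, and F53E10.4, now irg-3, was at 0.60. The saposin-like gene K02A11.4, now spp-25, was at 37.9 FPKM in the mock library, 10.8 FPKM with dcr-1 RNAi and 28.7 FPKM with drsh-1 RNAi. F23F1.7, now spp-24, had log2 ratios of 0.49 and 0.34, and Y77E11A.14, now spp-31, was listed in the drsh-1 table only (0.16). With these genes added, 21 of 61 were at least 2-fold higher and 9 lower in dcr-1 RNAi, against 6.71% and 6.53% of all listed genes. In drsh-1 RNAi 6 of 61 were higher, against 1.91% of all listed genes, and 1 was lower, or 1.64%, near the 1.59% of all listed genes.

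Other reported infection-induced effectors were taken from a list of 22 genes, 16 of them with a value for dcr-1 RNAi. At least 2-fold higher were 8, against 6.71% of all listed genes. F35E12.5 (irg-5) is among them and was also counted with the families above, so these counts overlap. The 1 lower gene is 6.25% of the list, near the 6.53% of all listed genes. T24B8.5, a reporter of PMK-1 activity, was at 187 FPKM in the mock library, 541 FPKM with dcr-1 RNAi and 488 FPKM with drsh-1 RNAi, so that both RNAi libraries were well above mock. dod-24, a CUB domain gene, was at 70.9 FPKM in the mock library, 205 FPKM with dcr-1 RNAi and 71.6 FPKM with drsh-1 RNAi. The lower gene, F53A9.8, was at 1752 FPKM in the mock library, 221 FPKM with dcr-1 RNAi and 743 FPKM with drsh-1 RNAi. In drsh-1 RNAi 3 of 17 were at least 2-fold higher, against 1.91% of all listed genes, with dod-19 highest at 1.67. The 2 lower genes, against 1.59%, were F53A9.8 (-1.24) and the C-type lectin gene clec-60 (-2.003), which is not in the dcr-1 table.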
